A study of Bos taurus with 18 samples.

Results

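The prostaglandin receptor genes followed here were measured in the bovine endometrium, the inner lining of the uterus. They were PTGER4, PTGER2, PTGER3, PTGFR and PTGIR, taken as the rows of the deposited count table that carry these 5 symbols, 5 of 38001 genes, and all 5 passed the filter on low counts and were tested. RNA was sequenced from endometrium brushed out of the uterus of 6 Holstein cows (Bos taurus), 3 libraries a cow. Cows A, B and C belonged to the 17-OHPC/P4 arm. On day 4 of a synchronized cycle, estrus being day 0, they were given 100 mg of 17α-hydroxyprogesterone caproate (17-OHPC), the caproate ester of a hydroxylated progesterone, with 10 mg of progesterone (P4) in a depot formulation, and were sampled on day 7 (treated day 7). Cows D, E and F, the P4 arm, were given 100 mg of P4 on day 4 and were likewise sampled on day 7. In an earlier synchronized cycle without injection, every cow was sampled on day 7 (control day 7) and on day 4 (control day 4), so each of the 6 groups held 3 cows and the same cow gave 1 library to each group of its arm. All cycles, untreated ones included, were synchronized with the Ovsynch hormone protocol. Treated samples always came from the second cycle, so injection and cycle cannot be told apart.

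Prostaglandins are short-lived lipids made from arachidonic acid that act on receptors at the surface of nearby cells. The E2 receptors EP2 (PTGER2) and EP4 (PTGER4) and the prostacyclin receptor IP (PTGIR) couple to the stimulatory G protein and raise cyclic AMP, EP3 (PTGER3) mostly lowers it, and the F2α receptor FP (PTGFR) releases calcium through phospholipase C. In the cow, endometrial prostaglandin F2α ends the life of the corpus luteum in a cycle without an embryo, and prostaglandin E2 is known for opposing it.

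The libraries held 29347255 to 40733544 counts. PTGER4 and PTGER2 were above 3 counts in 18 of 18 libraries, PTGFR in 16, and PTGER3 and PTGIR in 10 each. Counts from 1 to 20 were even in 78.3% of cases, so how read pairs were counted bears on the lowest values. The epithelial marker list (KRT8, KRT18, KRT19, EPCAM, CDH1 and CLDN4) summed to 1867 to 4699 CPM (counts scaled to a common library size), and no epithelial marker was at 0 in any library. The 8 stromal markers, which include collagens and vimentin, summed to 3176 to 6733 CPM in the libraries of cow C and to 107.8 to 3039 CPM in those of the other 5 cows. In brushed tissue, fewer cells of a type and less RNA per cell cannot be told apart. Levels of different receptors were not set against each other, because no transcript lengths were at hand.

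PTGER4 (ENSBTAG00000014972) was the receptor that rose in the untreated cycle, where it was higher on day 7 than on day 4. On control day 7, it stood at 36.8, 21.5 and 19.6 CPM in cows A, B and C and at 33.2, 93.4 and 31.1 CPM in cows D, E and F. On control day 4, it stood at 5.57, 5.86 and 11.2 CPM in cows A, B and C and at 10.9, 19.2 and 16.6 CPM in cows D, E and F. The lowest day 7 library, of cow C, lay just above the highest day 4 library, of cow E, and the groups did not overlap. The mean was 39.3 ± 27.4 CPM on day 7 and 11.6 ± 5.53 CPM on day 4 (SD, n = 6 cows each). The log2 fold change was 1.93 ± 0.37 (SE, 95% interval 1.15 to 2.72; adjusted p = 0.0061, edgeR quasi-likelihood test with Benjamini-Hochberg adjustment over the 19638 genes tested), a 3.82-fold higher level on day 7. In that comparison 10.6% of all genes were called at an adjusted p under 0.05, and 1 of the 5 receptors was. The call held without any 1 of the 18 libraries, with log2 fold changes of 1.58 to 2.13 and adjusted p of 0.0038 to 0.0201.

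**Figure D1:**
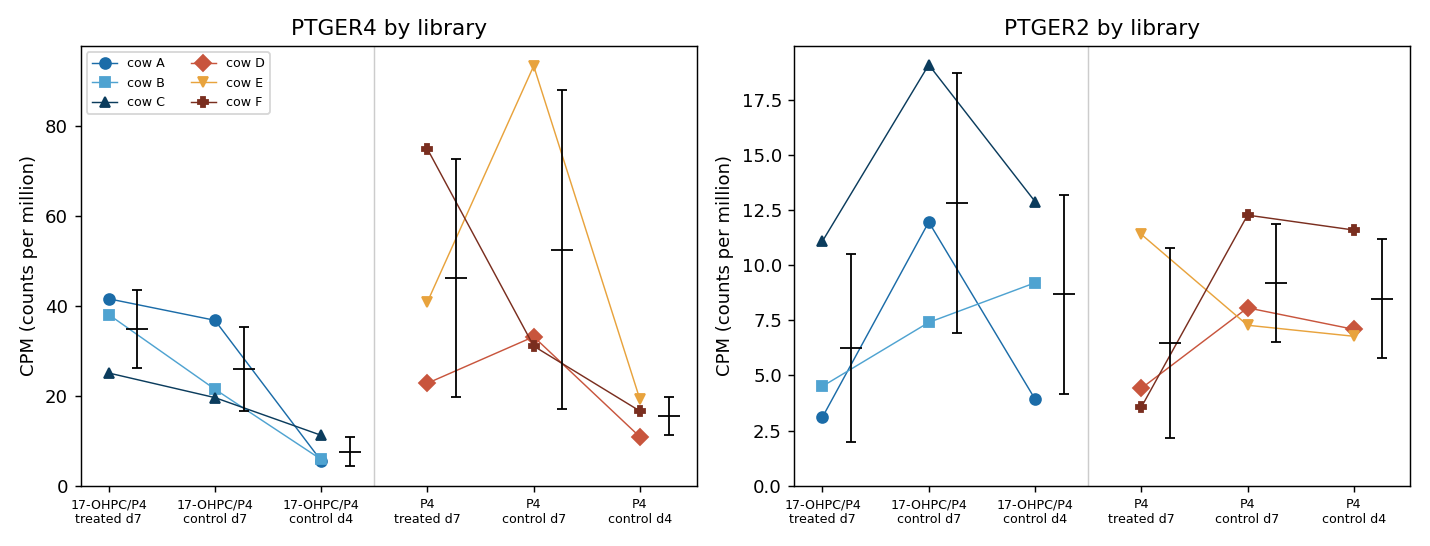
PTGER4 (left panel) and PTGER2 (right panel) in CPM in every library, with a line for each cow from treated day 7 through control day 7 to control day 4, and the mean and SD of 3 cows beside each group. PTGER4 on either day 7 lay at 19.6 CPM or more and on day 4 at 19.2 CPM or less, and PTGER2 on treated day 7 lay below control day 7 in 5 of 6 cows.

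Within single cows, PTGER4 was higher on control day 7 than on day 4 in 6 of 6. The change in log2(CPM + 0.1) ran from 0.80 in cow C to 2.70 in cow A, with a mean of 1.69 ± 0.75 (SD, n = 6). In the 17-OHPC/P4 arm, cow C also had the smallest difference between treated day 7 and day 4, 1.15, against 2.68 in cow B and 2.88 in cow A.

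Taken by arm, the day 7 rise of PTGER4 was called in the P4 arm and not in the 17-OHPC/P4 arm, and the difference between the arms did not pass the test. In the P4 arm, PTGER4 averaged 52.5 ± 35.4 CPM on control day 7 and 15.6 ± 4.26 CPM on day 4 (SD, n = 3 cows each), a log2 fold change of 2.03 ± 0.52 (SE; edgeR adjusted p = 0.0287). That comparison called 8.65% of all genes and 1 of the 5 receptors. The adjusted p passed the threshold without any of 13 libraries and missed it without the other 5: it was 0.0917, 0.0842 and 0.0961 without day 4 of cow D, E or F, and 0.0632 and 0.123 without control day 7 of cow D or E. Without control day 7 of cow E, the highest PTGER4 library, the log2 fold change was 1.33.

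In the cows that later received 17-OHPC/P4, PTGER4 averaged 26.0 ± 9.43 CPM on control day 7 and 7.55 ± 3.19 CPM on day 4 (SD, n = 3 cows each). The log2 fold change was 1.84 ± 0.52 (SE; edgeR adjusted p = 0.223). There edgeR called 0 of the 5 receptors and 0.0407% of all genes, with 1890 genes and 1 receptor, PTGER4, at an unadjusted p under 0.05. DESeq2 called PTGER4 in this comparison (adjusted p = 0.0265) and 409 genes in all, while limma voom called 0 receptors and 3 genes. The difference between the arms in the day 4 to day 7 change was -0.19 on the log2 scale (95% interval -1.71 to 1.33; adjusted p = 0.966 in edgeR). For that difference 0% of all genes and 0 of 5 receptors were called, with 1514 genes and 0 receptors at an unadjusted p under 0.05. DESeq2 called 88 genes and voom 0, and neither called a receptor.

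After injection, PTGER4 was not called as different from the untreated day 7 in either arm. On treated day 7 it stood at 41.6, 38.1 and 25.1 CPM in cows A, B and C, against 36.8, 21.5 and 19.6 CPM on control day 7 of the same cows. In the P4 arm it stood at 22.8, 40.9 and 74.9 CPM on treated day 7 in cows D, E and F, against 33.2, 93.4 and 31.1 CPM on control day 7. The level was higher after 17-OHPC/P4 in 3 of 3 cows, by 0.18 to 0.82 in log2(CPM + 0.1), while after P4 it was higher in cow F and lower in cows D and E. The groups overlapped in both arms. The log2 fold change of treated against control day 7 was 0.49 after 17-OHPC/P4 (95% interval -0.58 to 1.56; edgeR adjusted p = 0.990) and -0.14 after P4 (95% interval -1.21 to 0.93; edgeR adjusted p = 1).

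The difference between these responses was 0.63 (95% interval -0.89 to 2.14; edgeR adjusted p = 1). Over both arms the change was 0.17 (95% interval -0.58 to 0.93; edgeR adjusted p = 0.950). In each of the 4 comparisons of treatment response 0% of genes and 0 of 5 receptors were called by edgeR. At an unadjusted p under 0.05 there were 850 genes over both arms, 371 in the 17-OHPC/P4 arm, 596 in the P4 arm and 247 for the difference between arms, with 0 receptors in each. DESeq2 called 2, 1, 2 and 0 genes in these comparisons and voom called 0 in each, none of them a receptor.

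**Figure D2:**
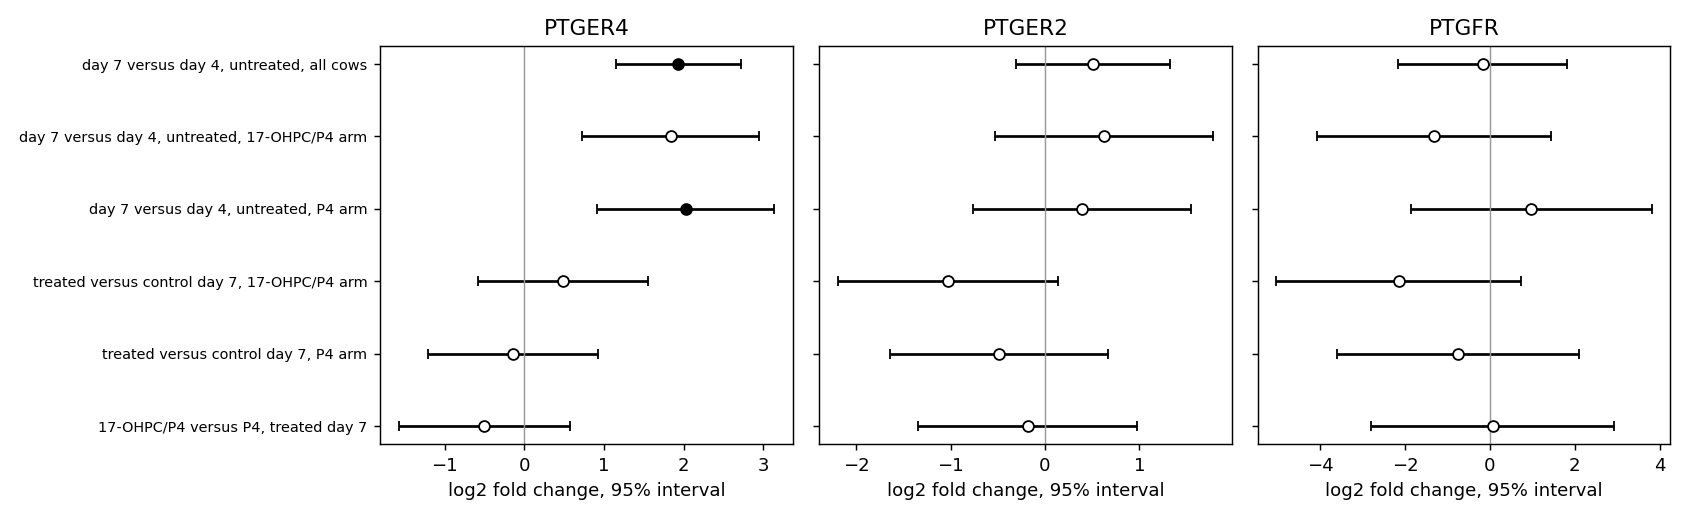
Log2 fold changes of PTGER4, PTGER2 and PTGFR in 6 comparisons, as points with 95% intervals from the edgeR fit. Filled points have an adjusted p under 0.05, open points do not. The filled points are PTGER4 on day 7 against day 4 over all cows, at 1.93, and in the P4 arm, at 2.03.

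Set against day 4 of the untreated cycle, PTGER4 on treated day 7 was higher in 6 of 6 cows. It lay at 22.8 CPM or more on treated day 7 and at 19.2 CPM or less on day 4, with no overlap. In the 17-OHPC/P4 arm the mean was 34.9 ± 8.70 CPM on treated day 7 and 7.55 ± 3.19 CPM on day 4 (SD, n = 3 cows each), a log2 fold change of 2.33 ± 0.53 (SE). Its edgeR adjusted p of 0.0549 missed the threshold. With the cow as a replicate block it was 0.0258, in DESeq2 0.0007 and in limma voom 0.0919. It also passed without control day 7 of cow A (0.0499), treated day 7 of cow C (0.0467) or control day 7 of cow F (0.0376). This comparison called 0.682% of all genes and 0 of 5 receptors. At an unadjusted p under 0.05 it held 4025 genes and 2 receptors, PTGER4 and PTGFR. DESeq2 called 1533 genes, PTGER4 among them, and voom 114.

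In the P4 arm the mean was 46.2 ± 26.5 CPM on treated day 7 and 15.6 ± 4.26 CPM on day 4 (SD, n = 3 cows each), and PTGER4 rose by 1.89 ± 0.52 on the log2 scale (SE; edgeR adjusted p = 0.0406). That comparison called 7.48% of all genes and 1 of the 5 receptors. The adjusted p was 0.0551 in limma voom and 0.0514 without the filter on low counts. Leaving out 1 library ended the call in 7 of 18 cases. The adjusted p was 0.122, 0.114 and 0.128 without day 4 of cow D, E or F, and 0.0527 and 0.205 without treated day 7 of cow E or F. It was 0.0538 and 0.0533 without control day 7 or treated day 7 of cow B, libraries of the other arm, and the cause was not tested. Treated and control day 7 were both set against the same day 4 libraries.

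Ordered by mean level, PTGER4 was highest on control day 7 of the P4 arm, then on treated day 7 after P4, treated day 7 after 17-OHPC/P4, control day 7 of the 17-OHPC/P4 arm, day 4 of the P4 arm and day 4 of the 17-OHPC/P4 arm. The step between control day 7 of the 17-OHPC/P4 arm and day 4 of the P4 arm, 10.4 CPM, and the last step, 8.01 CPM, exceeded the larger SD of the 2 neighbouring groups. The steps among the day 7 groups did not.

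PTGER4 was measured against markers of other cells in the same libraries. Of the 5 T and NK cell markers, CD3E and IL2RB fell between day 4 and day 7 over all cows, where 10.6% of all genes were called. With the cow as a replicate block, which called 16.7% of all genes, all 5 fell. The sum of these 5 markers ran from 26.6 to 75.7 CPM on control day 7 and from 62.1 to 164 CPM on day 4. The macrophage marker sum ran from 66.1 to 276 CPM on control day 7 and from 27.7 to 266 CPM on day 4. It was highest on control day 7 of cow E, the library with the highest PTGER4. Other libraries went the other way. On treated day 7 of cow F the macrophage sum was 31.3 CPM with PTGER4 at 74.9 CPM, and on day 4 of cow C it was 266 CPM with PTGER4 at 11.2 CPM. The epithelial marker sum was lower on control day 7 than on day 4 in 6 of 6 cows, at 2370 to 3538 CPM on control day 7 and 2675 to 4699 CPM on day 4, with 0 of the 6 markers called (1 rose with the block). The part of these cells in the PTGER4 result was not tested.

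PTGER2 (ENSBTAG00000002163), the other cyclic AMP-raising E2 receptor, was not called in any of the 13 comparisons. On control day 7 it stood at 11.95, 7.40 and 19.1 CPM in cows A, B and C and at 8.07, 7.28 and 12.3 CPM in cows D, E and F. On day 4 it stood at 3.93, 9.20 and 12.9 CPM in cows A, B and C and at 7.09, 6.78 and 11.6 CPM in cows D, E and F. The days overlapped widely, with a mean of 11.01 ± 4.54 CPM on day 7 and 8.58 ± 3.32 CPM on day 4 (SD, n = 6 cows each). The log2 fold change was 0.51 ± 0.38 (SE, 95% interval -0.31 to 1.33; edgeR adjusted p = 0.435).

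After injection PTGER2 stood at 3.11, 4.51 and 11.1 CPM in cows A, B and C and at 4.42, 11.4 and 3.56 CPM in cows D, E and F. It was lower than on control day 7 in 5 of 6 cows, by 0.70 to 1.91 in log2(CPM + 0.1), and higher by 0.64 in cow E. The groups overlapped, with a mean of 6.35 ± 3.83 CPM on treated day 7 and 11.01 ± 4.54 CPM on control day 7 (SD, n = 6 cows each). The log2 fold change of treated against control day 7 over both arms was -0.76 (95% interval -1.58 to 0.06), with an unadjusted p of 0.0673 and an adjusted p of 0.896 in edgeR. By arm it was -1.03 after 17-OHPC/P4 (95% interval -2.20 to 0.13; edgeR adjusted p = 0.990) and -0.49 after P4 (95% interval -1.65 to 0.67; edgeR adjusted p = 1).

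The balance of both E2 receptors was also described within each library, a measure chosen after their values were seen and so given with no test. The ratio of PTGER4 counts to PTGER2 counts is not a ratio of transcripts, and only its changes are read here. It was 13.4, 8.44 and 2.26 on treated day 7 in cows A, B and C, against 3.08, 2.90 and 1.03 on control day 7 and 1.42, 0.637 and 0.872 on day 4. In cows D, E and F it was 5.17, 3.59 and 21.0 on treated day 7, against 4.11, 12.8 and 2.53 on control day 7 and 1.53, 2.83 and 1.43 on day 4. The ratio was higher on control day 7 than on day 4 in 6 of 6 cows, by a geometric mean of 2.51-fold. On treated day 7 it was higher than on control day 7 in 5 of 6 cows, cow E being the exception, by a geometric mean over all 6 of 2.08-fold.

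**Figure D3:**
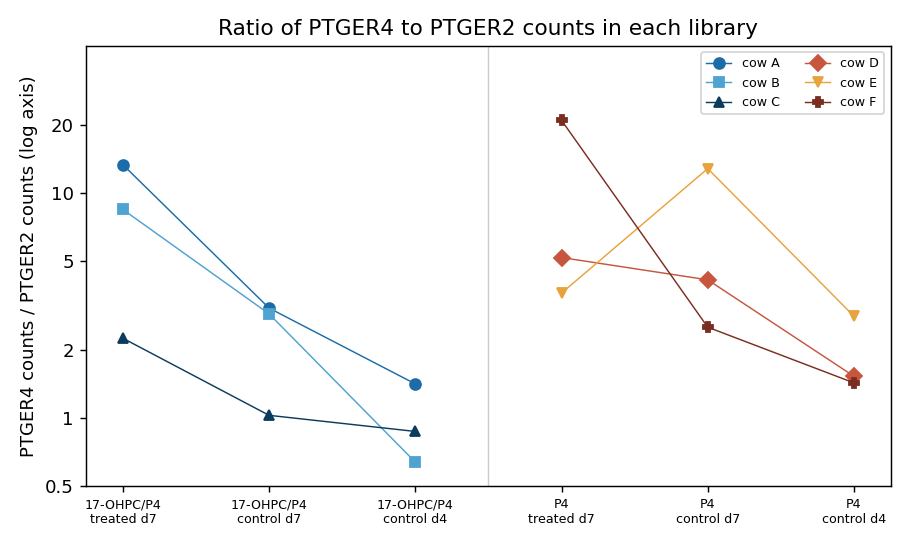
Ratio of PTGER4 to PTGER2 counts in every library, on a log axis, with a line for each cow from treated day 7 through control day 7 to control day 4. From high to low, the order treated day 7, control day 7, day 4 held in every cow of both arms except cow E. The highest ratio of all, 21.0, was on treated day 7 of cow F.

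PTGFR (ENSBTAG00000015902), the receptor of prostaglandin F2α, had few reads and large differences between cows. In the 17-OHPC/P4 arm it had 0, 18 and 32 counts on treated day 7 in cows A, B and C, against 14, 71 and 141 on control day 7 and 11, 334 and 169 on day 4. In the P4 arm it had 21, 2 and 16 counts on treated day 7 in cows D, E and F, against 5, 8 and 60 on control day 7 and 6, 28 and 14 on day 4. The libraries of cows B and C on both control days held the 4 highest counts. It was not called in any comparison by edgeR.

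Between treated and control day 7, PTGFR was lower on treated day 7 in 5 of 6 cows and higher in cow D, with a log2 fold change over both arms of -1.45 ± 0.95 (SE; edgeR adjusted p = 0.896). It was -0.63 without control day 7 of cow F. Treated day 7 against day 4 in the 17-OHPC/P4 arm gave -3.46 ± 1.41 (SE), with an unadjusted p of 0.0274 and an adjusted p of 0.201 in edgeR. Leaving out 1 library moved it between -4.39 (without treated day 7 of cow C) and -2.33 (without day 4 of cow B). On day 4 itself, before any injection, the level was 3.75 ± 1.43 (SE, log2) higher in the 17-OHPC/P4 arm than in the P4 arm, with an adjusted p of 0.148 in edgeR and 0.0264 in DESeq2. It was 2.62 without day 4 of cow B and 4.35 without day 4 of cow E. Cow A of the 17-OHPC/P4 arm, with 11 counts, lay within the range of the P4 arm. That day 4 comparison called 2.76% of all genes and 0 of 5 receptors in edgeR, with 4368 genes and 1 receptor at an unadjusted p under 0.05. DESeq2 called 2307 genes and voom 720.

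**Figure D4:**
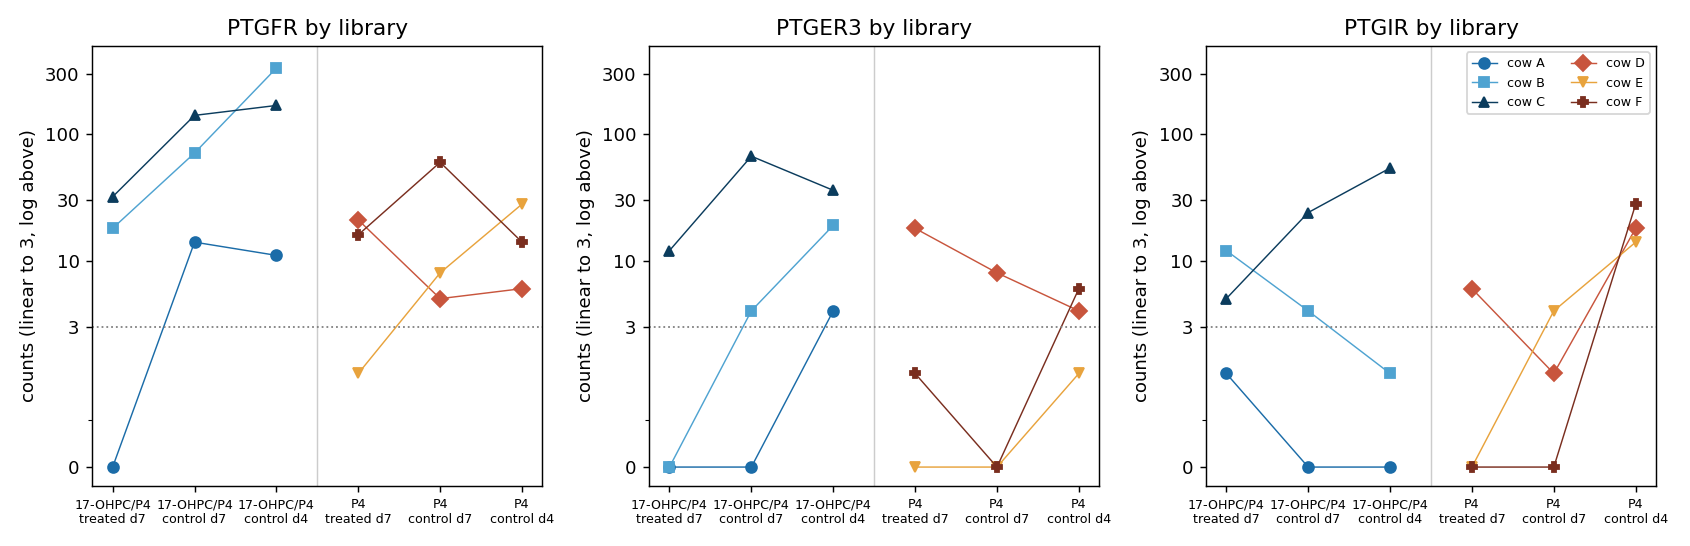
Counts of PTGFR, PTGER3 and PTGIR in every library, on an axis that is linear up to 3 counts and logarithmic above, with a line for each cow. The dotted line marks 3 counts, the limit that a count of 0 allows if each count is an independent read. Cow C holds the highest PTGER3 and PTGIR counts, 67 and 54.

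PTGER3 (ENSBTAG00000019230), the cyclic AMP-lowering E2 receptor, had low counts, above 3 in 10 of 18 libraries. It had 0, 0 and 12 counts on treated day 7 in cows A, B and C, against 0, 4 and 67 on control day 7 and 4, 19 and 36 on day 4. In cows D, E and F it had 18, 0 and 2 counts on treated day 7, against 8, 0 and 0 on control day 7 and 4, 2 and 6 on day 4. Cow C held the largest count on both control days and cow D on treated day 7. A count of 0 allows up to 3 counts if each count is an independent read, a limit that covers counting error only. If both reads of a pair were counted, which is not stated, the limit would be higher. No fold change is given. Its edgeR adjusted p was 0.985 for day 7 against day 4 over all cows and 0.958 for treated against control day 7.

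PTGIR (ENSBTAG00000014585), the prostacyclin receptor, was also sparse. It had 2, 12 and 5 counts on treated day 7 in cows A, B and C, against 0, 4 and 24 on control day 7 and 0, 2 and 54 on day 4. In cows D, E and F it had 6, 0 and 0 counts on treated day 7, against 2, 4 and 0 on control day 7 and 18, 14 and 28 on day 4. In the P4 arm the day 4 counts lay above all counts of control and treated day 7, while in the 17-OHPC/P4 arm the groups overlapped. The edgeR adjusted p was 0.331 for day 7 against day 4 over all cows, where 10.6% of genes were called, and 0.343 in the P4 arm alone.

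Marker lists were set beside the counts of the sparse receptors in each library, and they went together only in part. The 6 smooth muscle markers summed to 191, 290 and 554 CPM on treated day 7, control day 7 and day 4 of cow C, and to 35.4 to 209 CPM in the other 5 cows, the 209 being treated day 7 of cow D. These 4 libraries were among the 5 with the most PTGER3 counts, the other being day 4 of cow B. The macrophage markers summed to 266 CPM on day 4 of cow C, the library with the most PTGIR, but also to 276 CPM on control day 7 of cow E, where PTGIR had 4 counts. The ciliated cell markers were highest on day 4 of cow B, at 687 CPM, the library with the most PTGFR. On control day 7 of cow C they summed to only 103 CPM, where PTGFR had 141 counts. The part of these cells in the receptor levels was not tested.

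**Figure D5:**
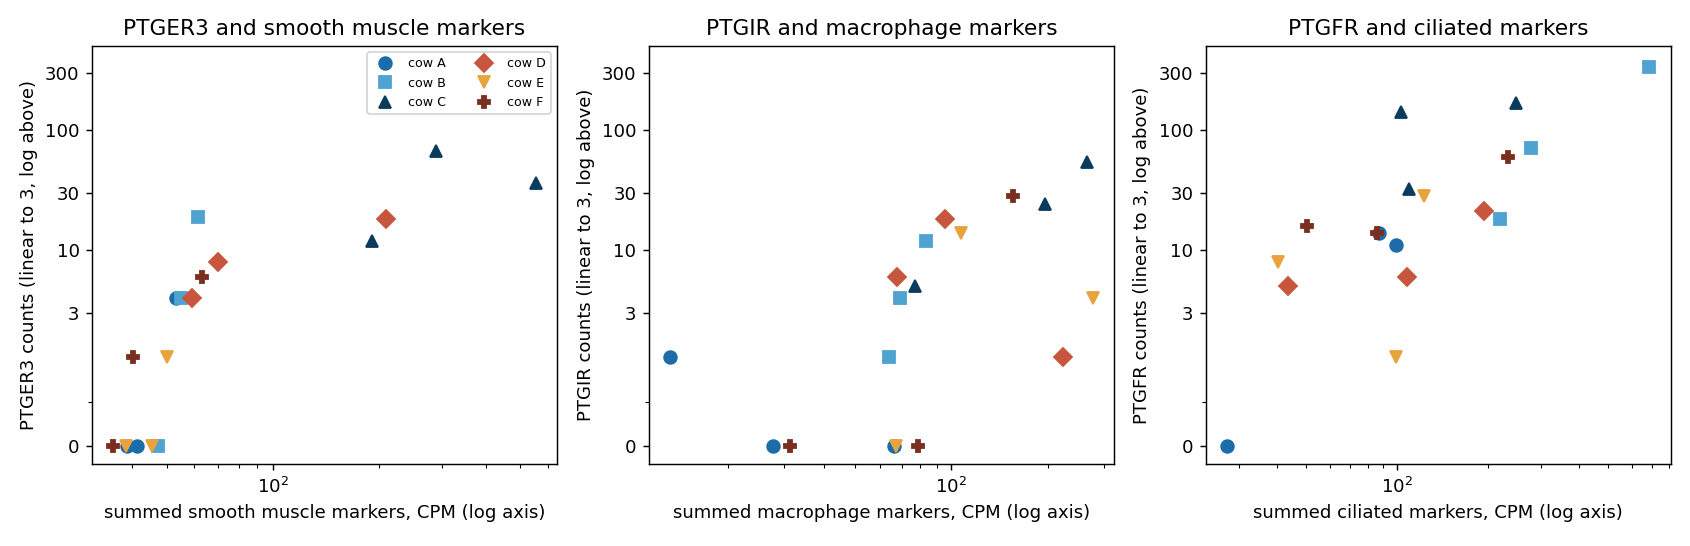
Counts of PTGER3, PTGIR and PTGFR in every library (linear up to 3, logarithmic above) against the summed CPM of smooth muscle, macrophage and ciliated cell markers (log axes), with a symbol for each cow. Cow C on day 4 stands at 554 CPM of smooth muscle markers with 36 PTGER3 counts, and cow B on day 4 at 687 CPM of ciliated markers with 334 PTGFR counts.

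Between arms, the treated day 7 libraries were set against each other although the doses differed, 100 mg of 17-OHPC with 10 mg of P4 against 100 mg of P4. PTGER4 stood at 34.9 ± 8.70 CPM after 17-OHPC/P4 and 46.2 ± 26.5 CPM after P4 (SD, n = 3 cows each), a log2 difference of -0.50 (95% interval -1.57 to 0.57; edgeR adjusted p = 0.845). PTGER2 stood at 6.24 ± 4.26 CPM after 17-OHPC/P4 and 6.46 ± 4.30 CPM after P4, a log2 difference of -0.18 (95% interval -1.34 to 0.97; edgeR adjusted p = 0.963). These intervals span differences of more than 1 on the log2 scale. That comparison called 0.0102% of genes and 0 of 5 receptors, with 1792 genes and 0 receptors at an unadjusted p under 0.05, and DESeq2 called 215 genes and voom 2, none of them a receptor.

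The arms were also compared before injection. On control day 7, PTGER4 was 1.13 ± 0.51 (SE, log2) lower in the 17-OHPC/P4 arm than in the P4 arm, with an unadjusted p of 0.0424 and an adjusted p of 0.460 in edgeR. Without control day 7 of cow E the difference was -0.43, and over all libraries left out 1 at a time it ran from -1.49 to -0.43. In that comparison 0.00509% of genes and 0 of 5 receptors were called, with 2088 genes and 1 receptor at an unadjusted p under 0.05. DESeq2 called 365 genes and voom 1, none of them a receptor. On day 4 the difference in PTGER4 was -0.94 ± 0.51 (SE, log2; edgeR adjusted p = 0.290).

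The remaining prostanoid receptors of the table were PTGER1 (EP1), the prostaglandin D2 receptors PTGDR and PTGDR2, and the thromboxane receptor TBXA2R. Of these 4, 0 were called over all cows between day 7 and day 4, where 10.6% of all genes were, and 1, PTGER1, fell in the P4 arm, where 8.65% were called. PTGER1 had 118, 123 and 71 counts on control day 7 in cows D, E and F, against 230, 887 and 596 on day 4, with no overlap. In cows A, B and C it had 77, 77 and 217 counts on control day 7, against 48, 102 and 202 on day 4. The log2 fold change in the P4 arm was -1.90 ± 0.55 (SE; edgeR adjusted p = 0.0443, and 0.0210 with the cow as a replicate block). On treated day 7 against day 4 in the P4 arm its adjusted p was 0.0659 in edgeR and 0.0334 with the block. The difference between arms in the day 4 to day 7 change was 1.94 ± 0.76 (SE; edgeR adjusted p = 0.590). For PTGER1 on control day 7 against day 4 in the P4 arm, leaving out 1 library raised the adjusted p from 0.0443 to 0.051 to 0.179 in 13 of 18 cases. It stayed below 0.05 without day 4 of cow A, C or D or control day 7 of cow A or C, and was highest without day 4 of cow E. On treated against control day 7, 0 of the 4 were called in either arm, where 0% of all genes were. PTGDR in the 17-OHPC/P4 arm had a log2 fold change of -1.46 ± 0.57 (SE), with an unadjusted p of 0.0216 and an adjusted p of 0.990 in edgeR. It had 14, 13 and 17 counts in cows A, B and C, against 38, 54 and 31 on control day 7. In the P4 arm the change was 0.66 ± 0.56 (SE). The difference between arms, -2.13 ± 0.80 (SE; edgeR unadjusted p = 0.0181), was not called.

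The genes that carry the receptor signal onward (G proteins, adenylyl cyclases, phospholipases C, protein kinase A and their partners) formed a list of 40 symbols, with 39 rows tested. On day 7 against day 4 over all cows, 3 rose and 0 fell, 3 of 39 against 10.6% of all genes called, with a median log2 fold change of -0.05, the same as over all genes tested. With the cow as a replicate block, which called 16.7% of all genes, 5 rose and 1 fell. ADCY9, an adenylyl cyclase, averaged 78.4 ± 34.3 CPM on control day 7 and 16.6 ± 6.80 CPM on day 4 (SD, n = 6 cows each), a log2 fold change of 2.37 ± 0.42 (SE; edgeR adjusted p = 0.0045). ADCY9 was higher on day 7 in 6 of 6 cows and called without any 1 library. PLCB1, a phospholipase C, averaged 40.9 ± 21.9 CPM on day 7 and 14.1 ± 7.98 CPM on day 4 (log2 fold change 1.74 ± 0.47, edgeR adjusted p = 0.0285). PRKAR2B, a regulatory subunit of protein kinase A, averaged 90.6 ± 21.3 CPM on day 7 and 60.2 ± 13.1 CPM on day 4 (log2 fold change 0.74 ± 0.17, edgeR adjusted p = 0.017). PLCB1 lost its call without any 1 of 7 libraries (day 4 of cows C, D, E and F, control day 7 of cows A, D and E; adjusted p 0.0537 to 0.0993). PRKAR2B lost it without control day 7 of cow A (0.0521).

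On treated against control day 7 over all cows, 0 of the 39 rows and 0% of all genes were called. The median log2 fold change of the 39 rows was 0.03. On treated day 7 against day 4, 0 of the 39 were called in the 17-OHPC/P4 arm, where 0.682% of all genes were. In the P4 arm 3 of 39 rose, where 7.48% of all genes were called. These 3 were ADCY2, ADCY9 and the calcium channel ITPR1, with log2 fold changes of 2.33, 3.03 and 2.17. Their calls were lost without day 4 of cow E or F or treated day 7 of cow F, with adjusted p from 0.0718 to 0.154. The counts with the block stand without their share over all genes and are not read further.

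Of 16 genes of prostaglandin synthesis, breakdown and transport, 14 were tested. With the cow as a replicate block, which called 16.7% of all genes, 2 rose on day 7 over all cows. Without the block 1 of the 14 rose while 0 fell, against 10.6% of all genes called. It was AKR1B1, an aldose reductase that makes prostaglandin F2α in bovine endometrium, higher in 6 of 6 cows and called without any 1 library. Its level was 780 to 3618 CPM on control day 7, against 85.5 to 722 CPM on day 4. Of 15 genes known to respond to prostaglandin E2 or cyclic AMP, 0 were called over all cows, with a median log2 fold change of 0.47 against -0.05 over all genes. On treated day 7 against day 4 in the P4 arm, NR4A1 and NR4A2, immediate early nuclear receptors, were called, 2 of 15 against 7.48% of all genes (edgeR adjusted p = 0.0486 and 0.0384). NR4A1 stood at 5.55, 495 and 11.8 CPM on treated day 7 in cows D, E and F, against 3.37, 4.00 and 5.59 CPM on day 4. Without treated day 7 of cow E the adjusted p was 0.473 for NR4A1 and 0.185 for NR4A2, and with the cow as a replicate block it was 0.165 and 0.0748. NR4A1 lost its call without 12 other libraries as well (all but day 4 of cows A and C, control day 7 of cows B and C and treated day 7 of cow D), and NR4A2 without 4 others, treated day 7 of cow B and day 4 of cows D, E and F.

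The genes whose log2 CPM followed each receptor most closely over the 18 libraries, which come from 6 cows, were named from 14619 candidates as a description. For PTGER4 they were the cathepsin CTSV (Pearson r 0.943, Spearman rho 0.922), the phospholipase PLA2G15 (r 0.934, rho 0.940) and the transporter SLC4A11 (r 0.922, rho 0.942). For PTGER2 they were ADGRF4 (r 0.890), ABLIM3 (r 0.875) and HTRA1 (r 0.873). For PTGFR they were TRIM8 (r 0.959), SLC2A9 (r 0.958) and CHST9 (r 0.940). For PTGER3 they were ACTA2 (r 0.911), the smooth muscle actin of the marker list, PROS1 (r 0.875) and PDE7B (r 0.874). For PTGIR they were AOAH (r 0.904), CELF2 (r 0.901) and INPP5D (r 0.899). PTGER4 and PTGER2 themselves had an r of -0.154.

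In RefSeq's annotation of ARS-UCD2.0, PTGIR overlaps CALM3, and PTGER2 and PTGER3 each overlap a long noncoding RNA. Without a stated strand setting, reads of such overlapping genes cannot be told apart. No overlap was found for PTGER4 or PTGFR.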

How the data were processed

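Per the labels, a cytobrush was turned once in the uterine horn next to the corpus luteum, the material went into RNAlater, and poly(A) RNA was sequenced in paired reads. Per the submitters' processing notes, cutadapt, FastQC, STAR, featureCounts and DESeq2 were used. Not given in the sources used here: genome build, annotation, strand setting, counting of read pairs. The authors deposited raw counts per gene for 38001 Ensembl identifiers; 17715 rows have no symbol, and names are those of the deposited table. Gene coordinates were used only to find which genes overlap in RefSeq's annotation of ARS-UCD2.0, and no sequences were used.

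Genes were kept by filterByExpr (minimum count 10, total 15), leaving 19638. A single edgeR 4.0.16 model (R 4.3.3; TMM, robust quasi-likelihood F test) with a term for each group held all 18 libraries and gave 13 comparisons. Benjamini-Hochberg adjustment ran over the 19638 genes of a comparison, and adjusted p under 0.05 was called. The biological coefficient of variation was 51.4%. CPM was computed from the deposited counts by library size. Alternatives were the cow as replicate block, RLE factors, no filter, DESeq2 1.42.0, limma voom 3.58.1, the compared groups alone, and each library left out. The labels give the same cow in each group of its arm: deviations from group means correlated at a median of 0.375 (-0.0712 to 0.718) between libraries of a cow and -0.144 between cows of an arm. The scripts were tested on simulated data.

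The 5 receptors, the 13 other gene lists and the tests were chosen with earlier results of these data known. Named besides the receptors are up to 4 called members of each list in a comparison, by smallest p, and for each receptor the 3 genes with the highest Pearson r. The cows of a group are separate animals.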

Additional observations from a re-analysis of the deposited data

Results flagged for a closer look

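Over the 6 cows of control day 7, or of day 4, each receptor was checked for a library that stood apart by Dixon's criterion at the 95% level. Chance marks about 1 in 20 such groups where values are normally distributed. The check was made on CPM and not on a log scale, so that rate need not hold here. Of the 10 groups 3 were marked, all of them on control day 7. PTGER4 stood apart in cow E, at 93.4 CPM, against 19.6 to 36.8 CPM in the other 5 cows. PTGER3 stood apart in cow C, at 1.70 CPM, and PTGIR also in cow C, at 0.608 CPM.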

How the results depend on the processing

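The call of PTGER4 on day 7 against day 4 over all cows held under every alternative run. The number of receptors called was 1 in place of 0 in DESeq2 for day 7 against day 4 in the 17-OHPC/P4 arm, for treated day 7 against day 4 in that arm (also 1 with the cow as replicate block) and for the arms on day 4. It was 0 in place of 1 in voom and without the filter for treated day 7 against day 4 in the P4 arm. Leaving out 1 library gave 0 to 1 receptors for day 7 against day 4 in the P4 arm and for treated day 7 against day 4 in each arm. The block changed no other call of these 5 receptors, and the arms, being different cows, cannot be blocked.

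Log2 values that turned sign were not called. In voom PTGFR was -0.17 for treated day 7 against day 4 in the P4 arm and -0.54 between treated arms. Without 1 library, PTGFR ran from -0.99 to 0.40 for day 7 against day 4 over all cows, -0.67 to 1.57 for that in the P4 arm, -1.38 to 0.89 for treated against control day 7 after P4, -0.40 to 0.83 for treated day 7 against day 4 in the P4 arm and -0.87 to 0.69 between treated arms. PTGER4 ran from -0.12 to 0.52 for treated against control day 7 over all cows, -0.72 to 0.56 after P4, -0.84 to 0.080 between treated arms, -0.074 to 1.21 for the difference of treatment responses and -0.56 to 0.51 for the difference of day 7 changes. PTGER2 ran from -0.76 to 0.18 for treated day 7 against day 4 in the P4 arm, -0.82 to 0.53 between treated arms, -0.28 to 0.46 between arms on day 4, -0.024 to 0.63 on control day 7, -1.17 to 0.18 for the difference of treatment responses and -0.15 to 0.64 for that of day 7 changes. The cause was not tested.

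With all libraries, genes called ranged over the other settings from 1653 to 3525 (edgeR 2073) for day 7 against day 4, 0 to 409 (8) in the 17-OHPC/P4 arm and 1241 to 3401 (1698) in the P4 arm. For treated day 7 against day 4 they ranged from 0 to 1533 (134) in the 17-OHPC/P4 arm and 1052 to 2984 (1468) in the P4 arm. Between arms they ranged from 0 to 215 (2) on treated day 7, 0 to 365 (1) on control day 7 and 0 to 2307 (542) on day 4. In these, DESeq2 was highest and no filter, or the compared groups alone, lowest. Leaving out 1 library gave 945 (without control day 7 of cow A) to 3192 genes for day 7 against day 4, 1 to 136 in the 17-OHPC/P4 arm and 271 (without control day 7 of cow D) to 2301 in the P4 arm. It gave 3 (without day 4 of cow B) to 1018 and 56 (without day 4 of cow E) to 1807 for treated day 7 against day 4 in the 17-OHPC/P4 and P4 arms. Between arms it gave 0 to 6 on treated day 7, 0 to 264 on control day 7 and 25 (without day 4 of cow E) to 969 on day 4. With 3 cows a group and PTGER3 and PTGIR at a median of 4 counts, changes in these 2 receptors were not detectable at this depth unless large, and DESeq2 gave neither an adjusted p in 3 comparisons of the 17-OHPC/P4 arm.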

Other observations

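Without injection, markers of other cells also changed by day 7. KRT14, a keratin of basal epithelial cells, averaged 7.64 ± 4.85 CPM on control day 7 and 1.47 ± 1.30 CPM on day 4 (SD, n = 6 cows each), higher on day 7 in 6 of 6 cows (log2 fold change 2.58, edgeR adjusted p = 0.0055), and was called without any 1 library. The sum of the 3 basal markers, KRT14, KRT5 and TP63, ran from 7.30 to 72.0 CPM on control day 7 and from 5.26 to 17.9 CPM on day 4, but it was lower on day 7 in cows A and C, so the list did not follow KRT14 in every cow. TP63 was at 0 in at least 1 library. CD3E, part of the T cell receptor complex, averaged 17.9 ± 7.73 CPM on control day 7 and 32.5 ± 11.4 CPM on day 4 (log2 fold change -0.80, edgeR adjusted p = 0.0292). IL2RB, an interleukin 2 receptor chain, averaged 15.4 ± 7.10 CPM on control day 7 and 30.3 ± 10.9 CPM on day 4 (log2 fold change -0.88, edgeR adjusted p = 0.0174). CD3E lost its call without any 1 of 7 libraries (day 4 of cows B, C, E and F, control day 7 of cows A, B and D; 0.0505 to 0.0937), and IL2RB without control day 7 of cow A or B or day 4 of cow F (0.0524 to 0.0551). Of the epithelial, ciliated, stromal, smooth muscle, endothelial, macrophage and neutrophil markers, 0 were called on day 7 against day 4 over all cows, where edgeR called 2073 genes. With the cow as a replicate block, which called 16.7% of all genes, 1 epithelial and 1 macrophage marker rose. The neutrophil markers S100A8 and S100A9 were at 0 in at least 1 library, and the sum of the 4 neutrophil markers ran from 16.1 to 127 CPM on control day 7 and from 2.38 to 59.8 CPM on day 4.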
